A study of Mus musculus with 6 samples.

Results

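CD8+ conventional dendritic cells (cDC) of mouse spleen were set against the other 2 cell populations measured beside them, splenic macrophages and CD8- cDC. The CD8+ cDC were 2 of the 6 arrays, and macrophages and CD8- cDC had 2 each, chosen by the cell type in the labels. All 3 groups came from spleen of strain C57/B6, and the labels name no treatment, age, sex, sorting marker or pooling. Nothing in the labels says that replicates came from separate animals, so the tests know only how far these arrays spread. Total RNA was hybridised to Illumina mouse bead arrays, and every value below is the deposited log2 signal of 1 probe per gene, the probe with the highest mean over the 6 arrays. A signal of 5.25 log2 or less was called background, since 99% of the values of probes for smell and taste receptors and hair proteins, which are read here as silent, lay there. Where an array on the dimmer side was at background it was counted at that level and the fold was given as a minimum.

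Conventional DC take up antigen, carry it to T cells and present it. The CD8+ subset, also known as cDC1, is known for taking up dying cells, for cross-presenting their antigens on MHC class I to CD8 T cells, and for its dependence on the transcription factors Batf3 and Irf8. The CD8- subset, cDC2, is better known for presenting antigen on MHC class II to CD4 T cells. Red pulp macrophages of the spleen clear aged red blood cells and recycle their iron.

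On these arrays CD8+ cDC had more genes above both other populations than below both. Of 19057 genes, 110 (0.577%) were higher in CD8+ cDC than in macrophages and than in CD8- cDC, with each difference at least 1 log2 and called at an adjusted p under 0.05. The reverse, lower than in each, held for 35 genes (0.184%). By the same rule macrophages had 794 higher and 376 lower genes, and CD8- cDC had 77 higher and 85 lower. Against the mean of the other 2 populations, 431 genes (2.26%) were higher and 514 (2.7%) lower in CD8+ cDC by limma with Benjamini-Hochberg adjustment over all probes, 4.96% of genes together. Most of those calls came from macrophages: 249 of the 431 and 422 of the 514 were called against macrophages and not against CD8- cDC. Pair by pair, 1001 genes (5.25%) were higher and 1249 (6.55%) lower in CD8+ cDC than in macrophages, against 245 (1.29%) and 144 (0.756%) in CD8+ cDC than in CD8- cDC. Both CD8+ cDC arrays lay above the other 4 in 9.47% of all genes and below them in 8.71%. The genes set apart from both therefore carry the account that follows.

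The calls rest on 3 residual degrees of freedom. Without any 1 of the 4 cDC arrays, limma called 0 genes against both populations after adjustment, although 213 to 267 genes were higher and 119 to 184 lower at an unadjusted p under 0.05 in both comparisons with at least 1 log2. Without macrophage replicate 1 the counts were 68 higher and 17 lower, and without macrophage replicate 2 they were 69 and 16. Without CD8+ cDC replicate 1 no gene was called against the mean of the others either, where 1712 were higher and 1514 lower at an unadjusted p under 0.05.

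**Figure D1:**
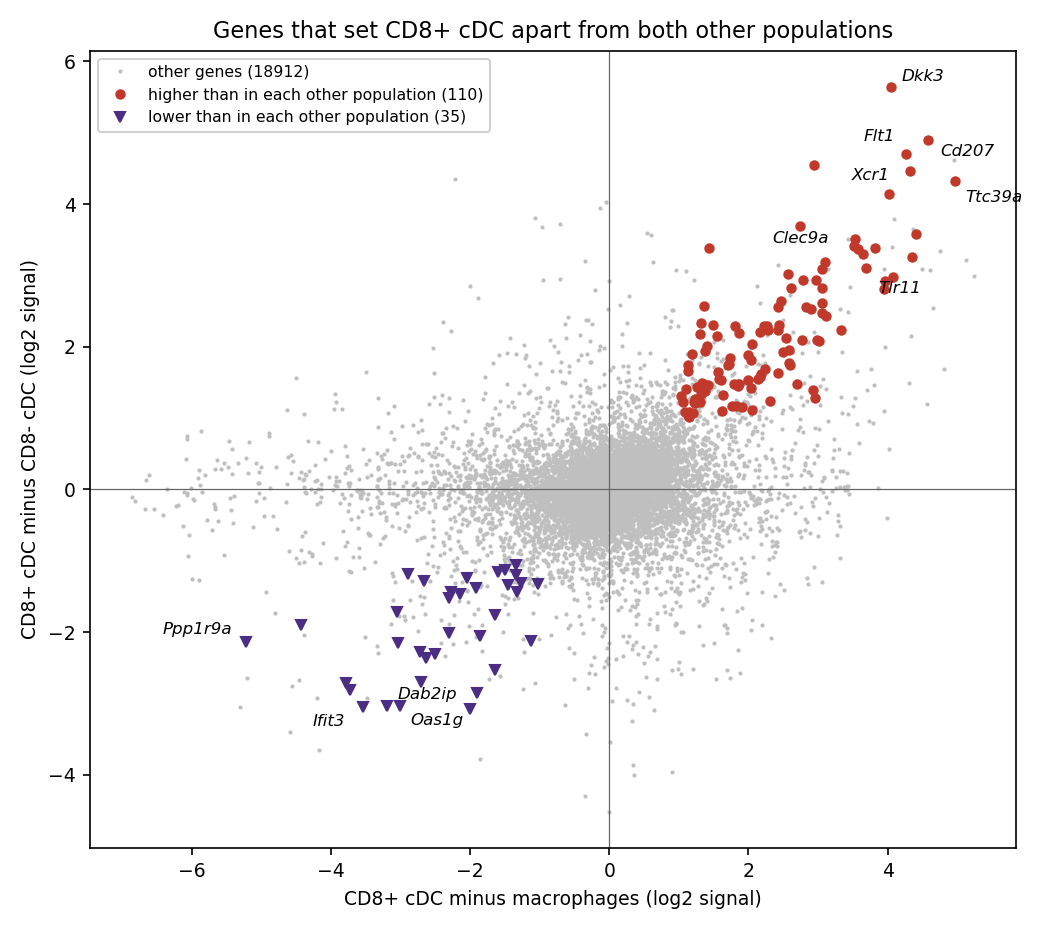
Each point is a gene, with CD8+ cDC minus macrophages on the horizontal axis and CD8+ cDC minus CD8- cDC on the vertical axis, both as differences of group means in log2 signal. The 110 genes higher than in each population lie in the upper right, up to Cd207, Ttc39a, Xcr1 and Flt1, and the 35 lower genes lie in the lower left, down to Ifit3, Dab2ip and Oas1g.

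The labels were set beside defining markers, in a list chosen with earlier results of these data known. Its counts are therefore a description and no independent check of the labels. The list of CD8+ cDC markers averaged 9.93 and 9.80 on the CD8+ cDC arrays, against 7.69 and 6.98 on the macrophage arrays and 7.49 and 7.11 on the CD8- cDC arrays. Of its 24 measured members, limma called 14 higher than the mean of the others and 0 lower, against 2.26% and 2.7% of all genes. At an unadjusted p under 0.05 the counts were 23 and 0, against 1824 and 1933 of all 19057 genes. The median difference was 2.79 log2 against -0.01 over all genes, and 7 members were set apart from both. Cd8a, which encodes the chain that names the subset, was near background, at 5.67 and 4.96 in CD8+ cDC, 4.49 and 4.33 in macrophages and 4.38 and 4.51 in CD8- cDC, and was not called. Its partner chain Cd8b1 was at 11.85 and 12.30 in CD8+ cDC, against 10.47 and 10.55 in macrophages and 10.46 and 10.39 in CD8- cDC, which is 2.96 and 3.14 times higher. Of its 3 probes 1 was called, and the probe with the largest variance missed the threshold (2.67 log2, limma adjusted p = 0.254). Flt3, the growth factor receptor of cDC, was also near background, between 4.64 and 6.0 on all 6 arrays.

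A second list bears on the purity of the arrays. The 20 measured red pulp macrophage genes averaged 6.78 and 8.60 on the CD8+ cDC arrays, 12.02 and 12.20 on the macrophage arrays and 8.57 and 6.97 on the CD8- cDC arrays. The second CD8+ cDC array and the first CD8- cDC array thus held more macrophage signal than their partners. C1qa, a subunit of complement C1q, was at 5.45 and 8.57 in CD8+ cDC, 12.61 and 13.19 in macrophages and 7.92 and 5.53 in CD8- cDC. The macrophage arrays differed the other way, with CD8+ cDC markers higher on the first. The part of these shifts in the results below was not tested. Without those 2 cDC arrays limma called 0 genes against either the mean of the others or each population, with 218 higher and 191 lower than each at an unadjusted p under 0.05 and at least 1 log2. Fewer cells of a type and less RNA per cell cannot be told apart in such bulk samples.

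**Figure D2:**
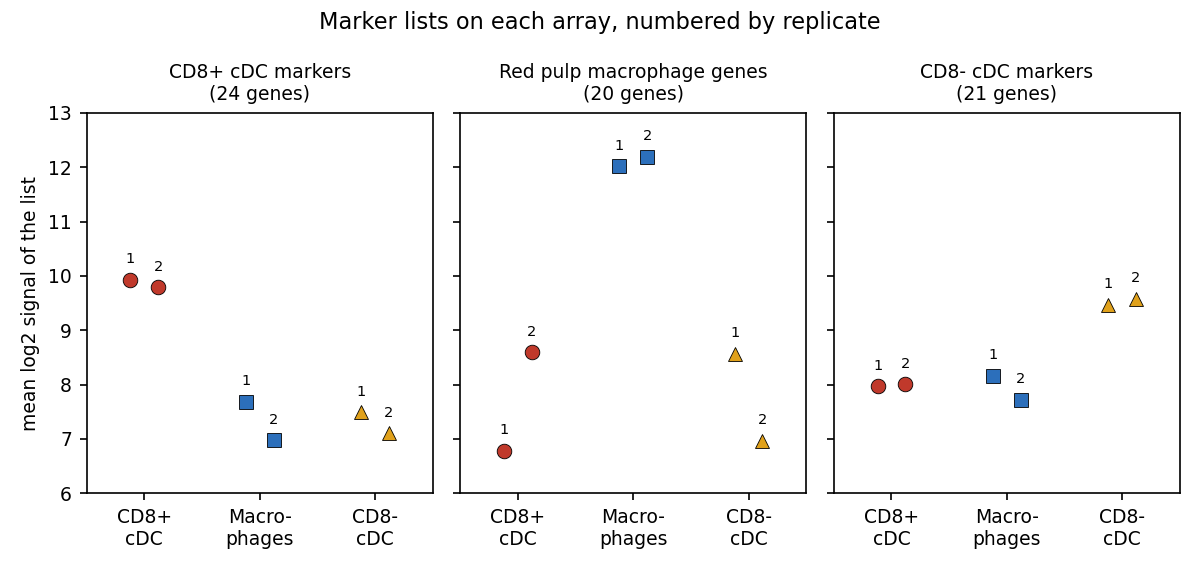
The mean log2 signal of 3 marker lists is shown on each array, numbered by replicate, for CD8+ cDC, macrophages and CD8- cDC from left to right. CD8+ cDC markers average 9.93 and 9.80 in CD8+ cDC and below 8 elsewhere, and red pulp macrophage genes differ between the replicates of each cDC population.

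Markers of other spleen cells were called in small numbers, and some lists stood apart on single arrays. Over all genes limma called 2.26% higher and 2.7% lower, and 1824 and 1933 of 19057 at an unadjusted p under 0.05. Among the 10 B cell genes limma called 0, with 2 higher and 1 lower at an unadjusted p under 0.05, and their mean was 7.80 and 7.08 in CD8+ cDC, 7.18 and 6.41 in macrophages and 6.97 and 6.50 in CD8- cDC. The 10 plasmacytoid DC genes also had 0 called by limma, with 2 higher at an unadjusted p under 0.05, and averaged 9.42 and 8.17 in CD8+ cDC, 7.98 and 6.75 in macrophages and 7.99 and 8.06 in CD8- cDC, with the first CD8+ cDC array above all others. Cd8b1 was the only T cell gene of 13 called, by 1 of its 3 probes. Against the 2.7% over all genes, 2 of 10 platelet and megakaryocyte genes were called lower (Clec1b and Pf4), as were 1 of 11 NK cell genes (Tbx21) and 1 of 12 eosinophil, basophil and mast cell genes (Ccr3), while 1 of 16 stromal and endothelial genes (Ccl19) was called higher. The first macrophage array held more T cell and neutrophil signal than the second: T cell genes averaged 6.45 and 5.77 in CD8+ cDC, 6.76 and 5.28 in macrophages and 6.39 and 5.71 in CD8- cDC, and neutrophil genes 5.34 and 5.02 in CD8+ cDC, 6.66 and 5.13 in macrophages and 5.60 and 5.04 in CD8- cDC. Their part in the results was not tested. Of genes held at steady levels in most cells, 2 of 11 were called higher, Rplp0 by 0.86 and Pgk1 by 1.0 log2.

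The 4 genes named for this comparison, chosen because earlier results of these data showed them, are given as a description. Cd207 encodes langerin, a C-type lectin that binds sugars on microbes. It was at 10.32 and 10.50 in CD8+ cDC, against 6.76 and 4.91 in macrophages and 5.78 and 5.23 in CD8- cDC, at least 21.1 times the macrophage level and at least 29.7 times the CD8- cDC level. Xcr1 encodes the receptor for the chemokine XCL1, which activated CD8 T cells and NK cells release. It was at 10.10 and 10.02 in CD8+ cDC, 6.31 and 5.18 in macrophages and 6.09 and 5.11 in CD8- cDC. Flt1, a receptor for vascular endothelial growth factor, was at 9.42 and 9.23 in CD8+ cDC, 5.72 and 4.41 in macrophages and 4.77 and 4.47 in CD8- cDC. Ttc39a, a tetratricopeptide repeat gene, was at 11.67 and 11.55 in CD8+ cDC, 7.49 and 5.81 in macrophages and 7.37 and 7.21 in CD8- cDC. In all 4 genes both CD8+ cDC arrays lay above the other 4 arrays by over 3 log2, and the first macrophage array lay above the second.

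Clec9a, Tlr11 and Gpr33, which encode receptors, were among the 20 genes highest over each population. Clec9a, the C-type lectin that binds actin filaments exposed by dead cells, was at 12.41 and 12.60 in CD8+ cDC, against 9.24 and 8.70 in macrophages and 9.08 and 8.91 in CD8- cDC. That was 11.6 and 11.4 times higher, with a difference from the mean of the others of 3.52 ± 0.18 log2 (SE, 2 arrays per group, limma adjusted p = 0.00771). Tlr11, the mouse receptor for Toxoplasma profilin, was at 11.18 and 11.87 in CD8+ cDC, 7.90 and 7.78 in macrophages and 8.28 and 8.54 in CD8- cDC, 12.8 and 8.64 times higher. The groups did not overlap in either gene. Gpr33, a receptor related to chemoattractant receptors, was at 8.43 and 8.94 in CD8+ cDC and at or near background in both others, at least 10.8 times the macrophage and 9.41 times the CD8- cDC level. The chemokine receptor Cxcr3, whose ligands include Cxcl9, was 5.51 times higher than in macrophages and 6.25 times higher than in CD8- cDC. Ifnlr1, the specific chain of the interferon lambda receptor, which was set apart from both but was chosen after its values were seen, was at 8.21 and 8.19 in CD8+ cDC, 5.51 and 4.76 in macrophages and 5.70 and 5.76 in CD8- cDC.

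Promoter windows are shown for 3 of these receptor genes, because they are among the genes that define the population and each holds a composite motif of the kind that BATF and IRF proteins are known to bind together. The sequences are RefSeq's for GRCm38.p6, from 250 bases before to 50 after the transcription start, 5′ to 3′ on the gene's strand. Capitals mark matches, on either strand, to TTTC and TGA with any 4 bases between them (the spaced form) or to GAAATGA (the joined form), and in Cd207 also an AP-1 match, TGANTCA, which overlaps GAAATGA. The windows lie at chr6:83677808-83678107 on the minus strand for Cd207, chr9:123861980-123862279 on the minus strand for Xcr1 and chr6:129408612-129408911 on the plus strand for Clec9a.
Cd207: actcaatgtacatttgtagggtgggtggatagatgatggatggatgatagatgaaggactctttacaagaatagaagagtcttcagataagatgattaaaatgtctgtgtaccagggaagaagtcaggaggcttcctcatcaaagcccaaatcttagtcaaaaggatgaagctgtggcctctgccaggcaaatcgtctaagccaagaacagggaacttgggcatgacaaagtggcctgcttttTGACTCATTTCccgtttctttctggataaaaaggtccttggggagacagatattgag
Xcr1: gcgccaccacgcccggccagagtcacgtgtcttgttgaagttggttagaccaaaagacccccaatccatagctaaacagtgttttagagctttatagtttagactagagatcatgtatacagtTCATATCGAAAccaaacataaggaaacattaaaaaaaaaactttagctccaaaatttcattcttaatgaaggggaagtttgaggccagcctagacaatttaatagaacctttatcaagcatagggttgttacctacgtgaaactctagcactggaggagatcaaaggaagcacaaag
Clec9a: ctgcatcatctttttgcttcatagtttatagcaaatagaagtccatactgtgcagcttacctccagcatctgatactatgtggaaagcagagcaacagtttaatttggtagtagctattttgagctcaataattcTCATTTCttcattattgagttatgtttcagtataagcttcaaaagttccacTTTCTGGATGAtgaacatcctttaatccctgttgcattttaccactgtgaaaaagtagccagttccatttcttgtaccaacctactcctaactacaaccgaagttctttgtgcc
Counted from the start site, the last match to one of the composite forms begins at -127 in Xcr1, -64 in Clec9a and -3 in Cd207. Of the 110 high genes, 86 had a window, 113 windows in all. The spaced form was in 6 of these (5.31%), against 3.9% of all 18684 windows, in Clec9a, Gpr33, Gramd2, Ifnlr1 and Xcr1. The joined form was in 7 of the 113 (6.19%), against 4.84% of all windows, but in 5 of 40 windows of the low genes (12.5%) and 2 of 26 of the shared ones (7.69%). The spaced form was in 1 of those 40 (2.5%). TGANTCA was in 5 of the 113 windows of the high genes (4.42%), a smaller share than the 6.99% of all windows. It was in 4 of the 40 windows of the low genes and in 3 of the 26 shared ones (11.5%). A match is a description of letters and not a binding site, and the 3 windows were picked because they hold one.

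Dkk3, Sema4f and Itga3 were set apart from both as well. The list of integrins and adhesion molecules had 1 of 42 members set apart, against 0.577% of all genes, and a median of 0.09 log2. Dkk3, a secreted protein of the Dickkopf family, was at 10.82 and 10.33 in CD8+ cDC, against 6.88 and 6.16 in macrophages and 5.42 and 4.44 in CD8- cDC, 16.6 times the macrophage level and at least 37.6 times the CD8- cDC level. It differed from the mean of the others by 4.85 ± 0.37 log2 (SE, limma adjusted p = 0.0109), the largest such difference among the 110. Sema4f, a semaphorin, was at 8.71 and 9.32 in CD8+ cDC, 4.70 and 4.53 in macrophages and 5.24 and 5.62 in CD8- cDC. Itga3, an integrin alpha chain, was at 6.27 and 6.66 in CD8+ cDC and at background on all 4 other arrays. Itgae, the alpha chain of CD103, had a difference of 4.79 log2 from the mean of the others but did not count as set apart. It was at 11.68 and 11.63 in CD8+ cDC, 7.83 and 5.56 in macrophages and 7.41 and 6.65 in CD8- cDC, with a larger pairwise adjusted p of 0.0805.

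Several enzymes were among the genes set apart, given one by one and with no list behind them. Pdia5, a protein disulfide isomerase of the endoplasmic reticulum, was at 11.82 and 11.85 in CD8+ cDC, 8.07 and 7.57 in macrophages and 8.24 and 7.14 in CD8- cDC, 16.2 and 17.7 times higher. Naaa, a lysosomal amidase of fatty acid ethanolamides, was at 7.86 and 7.98 in CD8+ cDC and near background on the other 4 arrays, at 4.90 and 4.83 in macrophages and 5.23 and 5.37 in CD8- cDC. P3h2, which hydroxylates proline in collagen, was at 9.60 and 9.84 in CD8+ cDC, 6.66 and 6.89 in macrophages and 5.33 and 5.01 in CD8- cDC. The genes in the rest of this paragraph were picked after their values were seen. Ppt1, a lysosomal thioesterase, was at 13.09 and 12.94 in CD8+ cDC, 10.78 and 10.12 in macrophages and 10.02 and 9.97 in CD8- cDC. The lysosomal hydrolases Gusb and Arsb were 3.64 and 8.04 times higher than in macrophages and 4.57 and 4.23 times higher than in CD8- cDC. Of the 3 probes of Arsb 1 was called higher than the mean of the others. Ido1, which degrades tryptophan, was at 7.49 and 7.46 in CD8+ cDC and at background on the other 4 arrays, at least 4.66 times higher than in each.

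Other genes among the 20 highest over each population had roles in transport, scaffolding and regulation. Slco3a1, an organic anion transporter, was at 9.91 and 9.74 in CD8+ cDC, 6.15 and 5.85 in macrophages and 6.38 and 6.50 in CD8- cDC. Trib1, a pseudokinase that promotes the degradation of C/EBP proteins, was at 9.19 and 9.50 in CD8+ cDC, 6.64 and 6.11 in macrophages and 6.41 and 6.39 in CD8- cDC. Homer2, a scaffold protein first known from synapses, was at 7.72 and 7.91 in CD8+ cDC and at background on the 4 other arrays. Sh3pxd2b, an adaptor of podosomes, and Atg9b, a membrane protein of autophagy, were at least 11.6 and 14.3 times the macrophage level and 10.3 and 9.57 times the CD8- cDC level. Fndc5, Fndc7, Lrrc3 and Gm3336 complete the 20, with differences from the mean of the others of 3.44, 3.53, 3.14 and 3.47 log2.

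**Figure D3:**
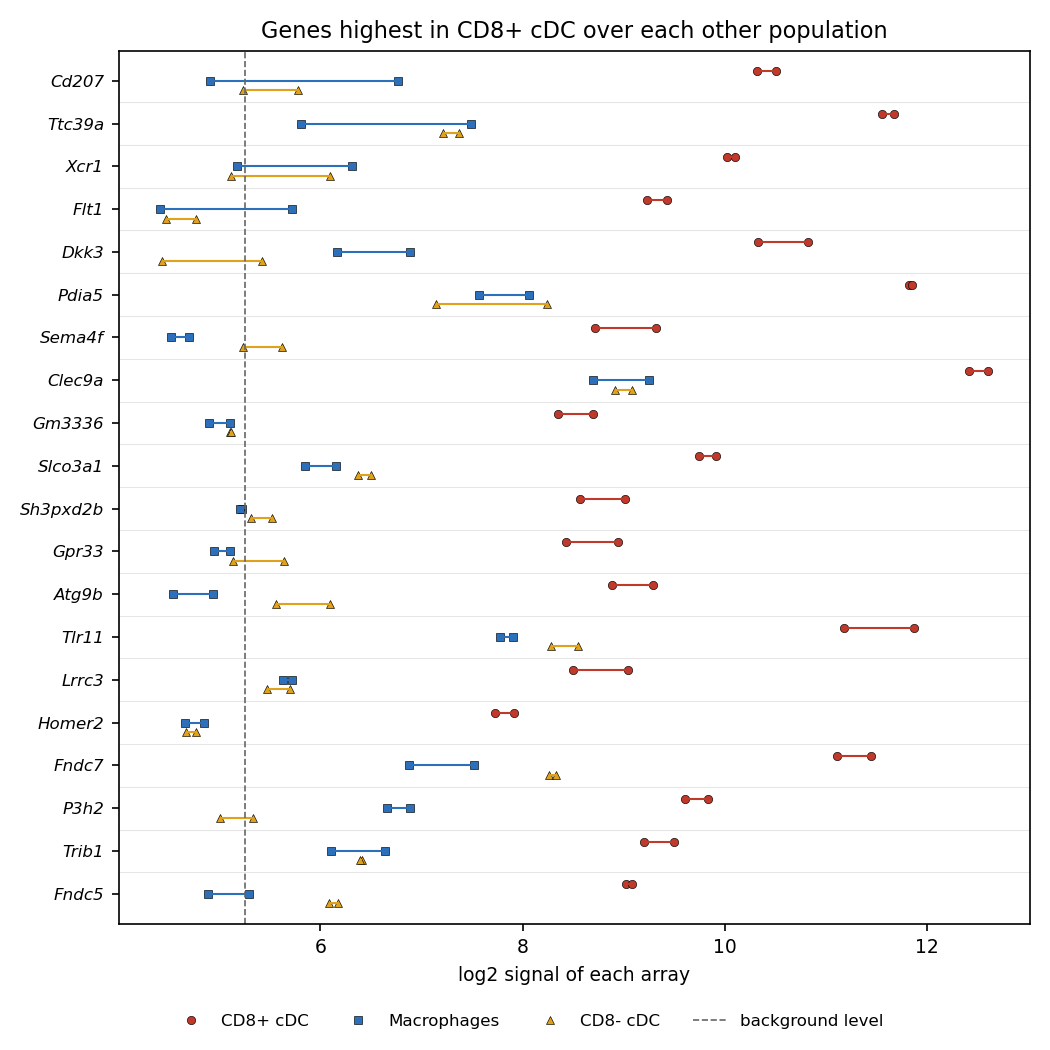
The log2 signal of every array is shown for the 20 genes highest in CD8+ cDC over each other population, with CD8+ cDC, macrophages and CD8- cDC as separate symbols from top to bottom in each row and the dashed line at the background level of 5.25 log2. In each row both CD8+ cDC arrays lie to the right of the other 4.

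The 110 high genes had a wide range of levels in the other populations. Their group means ran from 4.42 to 12.3 log2 in macrophages, with a median of 6.48, and from 4.35 to 12.3 log2 in CD8- cDC, also with a median of 6.48. The means of these 2 populations lay within 1 log2 of each other for 96 of them, and 18 were at background on all 4 of their arrays. The median of the smaller of each gene's 2 differences was 1.71 log2; 45 genes passed 2 log2 and 16 passed 3 log2 against each population. With replicate number as a block, 95 of the 110 were still set apart from both; among genes named here Dbn1, Gramd2 and Sdad1 were not. Where macrophages and CD8- cDC did differ by the test, CD8- cDC were the higher in 13 genes and macrophages in 5. Cxcl16, the membrane-bound chemokine, was one of these, at 11.28 and 11.58 in CD8+ cDC, 8.44 and 8.52 in macrophages and 10.001 and 10.31 in CD8- cDC. Fgd6, a guanine exchange factor for Cdc42, went the other way, at 9.23 and 8.74 in CD8+ cDC, 7.33 and 7.76 in macrophages and 5.68 and 5.51 in CD8- cDC.

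Ranked by the smaller of the 2 pairwise differences, Ifit3, Dab2ip and Oas1g were the lowest of the 35, while by the mean contrast Ppp1r9a was (-3.68 log2). Interferon-stimulated genes among the 35 come first here. Ifit3, which binds viral RNA together with other IFIT proteins, was at 7.42 and 8.57 in CD8+ cDC, against 11.36 and 11.71 in macrophages and 10.94 and 11.14 in CD8- cDC. It was 11.6 and 8.28 times lower, with a difference of -3.30 ± 0.35 log2 from the mean of the others (SE, limma adjusted p = 0.0195). Oas1g, of the family that makes oligoadenylates on sensing double-stranded RNA, was at 7.13 and 7.85 in CD8+ cDC, 10.44 and 10.54 in macrophages and 10.60 and 10.45 in CD8- cDC. It was 8.01 and 8.19 times lower (-3.02 ± 0.21 log2, SE, limma adjusted p = 0.00967). Both CD8+ cDC arrays lay below the other 4 in each gene. Oas2 was at 4.98 and 5.90 in CD8+ cDC, 7.56 and 7.33 in macrophages and 8.55 and 8.47 in CD8- cDC. Ifitm3, a membrane protein that blocks virus entry, was lower by a smaller amount, at 10.998 and 11.40 in CD8+ cDC, 12.77 and 12.91 in macrophages and 12.83 and 13.08 in CD8- cDC.

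The interferon list as a whole was mixed. Of its 38 measured members 12 were called lower and 2 higher than the mean of the others, against 2.7% and 2.26% of all genes. Lower than in each population were 5 (Ifit3, Oas1g, Oas2, Ifitm3 and Ifitm1), against 0.184% of all genes, and the list median was -0.45 log2. Ifitm1 was not called with the probe of largest variance (adjusted p = 0.220). The 2 higher genes were Ifi205, of the Ifi200 family, and Oasl1, and neither was set apart from both populations. Ifi205 was at 12.10 and 12.02 in CD8+ cDC, 7.71 and 5.93 in macrophages and 9.50 and 8.62 in CD8- cDC. Oasl1 rose by 1.07 log2, a call that was lost with the replicate block (adjusted p = 0.0657). The Oas and Ifitm genes are families of similar sequence, so their probes may share signal.

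In capitals are matches on either strand to the core of the interferon-stimulated response element, GAAA and GAAA with any 2 bases between them. The promoters of 3 genes lower in CD8+ cDC are shown because they hold this core. They lie at chr19:34583279-34583578 on the plus strand for Ifit3, chr5:120887564-120887863 on the minus strand for Oas1g and chr7:141010695-141010994 on the minus strand for Ifitm3, from RefSeq on GRCm38.p6.
Ifit3: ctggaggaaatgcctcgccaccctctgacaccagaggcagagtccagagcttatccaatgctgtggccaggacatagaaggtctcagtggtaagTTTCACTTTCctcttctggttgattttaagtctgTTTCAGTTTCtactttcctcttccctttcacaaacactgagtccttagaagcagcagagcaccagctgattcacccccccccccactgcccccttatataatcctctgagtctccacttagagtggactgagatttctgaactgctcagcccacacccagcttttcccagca
Oas1g: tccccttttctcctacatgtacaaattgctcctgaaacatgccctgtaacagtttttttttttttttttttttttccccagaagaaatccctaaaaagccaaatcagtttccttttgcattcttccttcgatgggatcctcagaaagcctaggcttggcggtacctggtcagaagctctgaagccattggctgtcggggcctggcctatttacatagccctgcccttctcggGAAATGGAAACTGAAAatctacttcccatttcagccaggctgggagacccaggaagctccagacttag
Ifitm3: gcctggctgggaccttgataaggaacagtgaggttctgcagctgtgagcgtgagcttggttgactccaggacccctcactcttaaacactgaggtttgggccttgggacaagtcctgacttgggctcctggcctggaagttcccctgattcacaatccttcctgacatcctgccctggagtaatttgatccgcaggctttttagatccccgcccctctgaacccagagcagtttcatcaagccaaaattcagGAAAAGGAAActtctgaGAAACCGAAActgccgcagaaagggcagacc
Each of the 3 windows has 2 matches, and those of Oas1g overlap. The motif was in 4 of 26 windows of genes that both other populations shared (15.4%), namely those of Ifi213, Ifit3, Ifitm3 and Oas1g, in 3 of 113 windows of the high genes (2.65%) and in 3.38% of all windows. GAGGAAGT, a form of the PU.1 motif, was in 5 of the 26 (19.2%), in 7 of the 40 (17.5%), in 6 of the 113 (5.31%) and in 2.9% of all. These shares are descriptions of a few windows each.

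Of the 35 low genes, 27 (0.142% of all) were shared by macrophages and CD8- cDC, being above background on all 4 of their arrays with means within 1 log2. Low here means lower than in the others: 2 of the 27 were at background on both CD8+ cDC arrays. For 17 of the 27 the 95% interval of macrophages minus CD8- cDC lay within 1 log2 on both sides. Close levels were thus shown only for those 17. Genes counted as shared could still differ by the test. Gcnt1 and Bcl9l were higher in macrophages than in CD8- cDC by 0.77 and 0.84 log2 (limma adjusted p = 0.018 and 0.0351). Dab2ip, a Ras GTPase-activating protein, was at 6.38 and 7.22 in CD8+ cDC, 10.04 and 9.94 in macrophages and 9.86 and 9.79 in CD8- cDC, 9.13 and 8.16 times lower. Ddit4, an inhibitor of mTORC1 that stress induces, was at 6.98 and 8.06 in CD8+ cDC, 11.08 and 11.40 in macrophages and 10.37 and 10.29 in CD8- cDC. Pram1, an adaptor of myeloid cells, was at background on both CD8+ cDC arrays (4.58 and 5.0), with 7.17 and 7.80 in macrophages and 7.33 and 7.65 in CD8- cDC, at least 4.70 times lower. Apobec1, which edits C to U in the apolipoprotein B transcript, was at 7.80 and 8.31 in CD8+ cDC, 10.47 and 10.66 in macrophages and 10.09 and 10.64 in CD8- cDC. Fabp5, a fatty acid binding protein, was the other shared gene at background on both CD8+ cDC arrays, at 4.46 and 4.76, against 6.37 and 6.56 in macrophages and 6.69 and 6.64 in CD8- cDC.

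The other shared genes make up the 27 and are given by name whether or not the rule for named genes took them. Receptors among them were Trem3, Cd300lf and Tlr1. Tlr1, which pairs with Tlr2 to sense bacterial lipopeptides, was at 7.94 and 8.08 in CD8+ cDC, 9.38 and 9.91 in macrophages and 10.48 and 10.59 in CD8- cDC. Casp1, the protease of the inflammasome, was at 11.19 and 11.08 in CD8+ cDC, 12.57 and 12.89 in macrophages and 12.26 and 12.33 in CD8- cDC. Histone genes H2bc9, H2bc11 and H2bc15, whose probes may not separate the family, differed from the mean of the others by -1.40 to -1.27 log2. The rest were Gngt2, Ifi27, Arap2, Gcnt1, Ifi47, Bcl9l, Entpd4, Ifi213, Stau2, Hvcn1, Fyb and Meis1, beside Ifit3, Oas1g and Ifitm3, and over the 27 the differences from the mean of the others ran from -3.30 to -1.17 log2. With replicate number as a block, 21 of the 27 kept the call; Cd300lf, Casp1, H2bc15, Ifi213, Bcl9l and Hvcn1 did not. The second CD8+ cDC array was above the first in 19 of the 27 genes, by a median over all 27 of 0.21 log2.

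**Figure D4:**
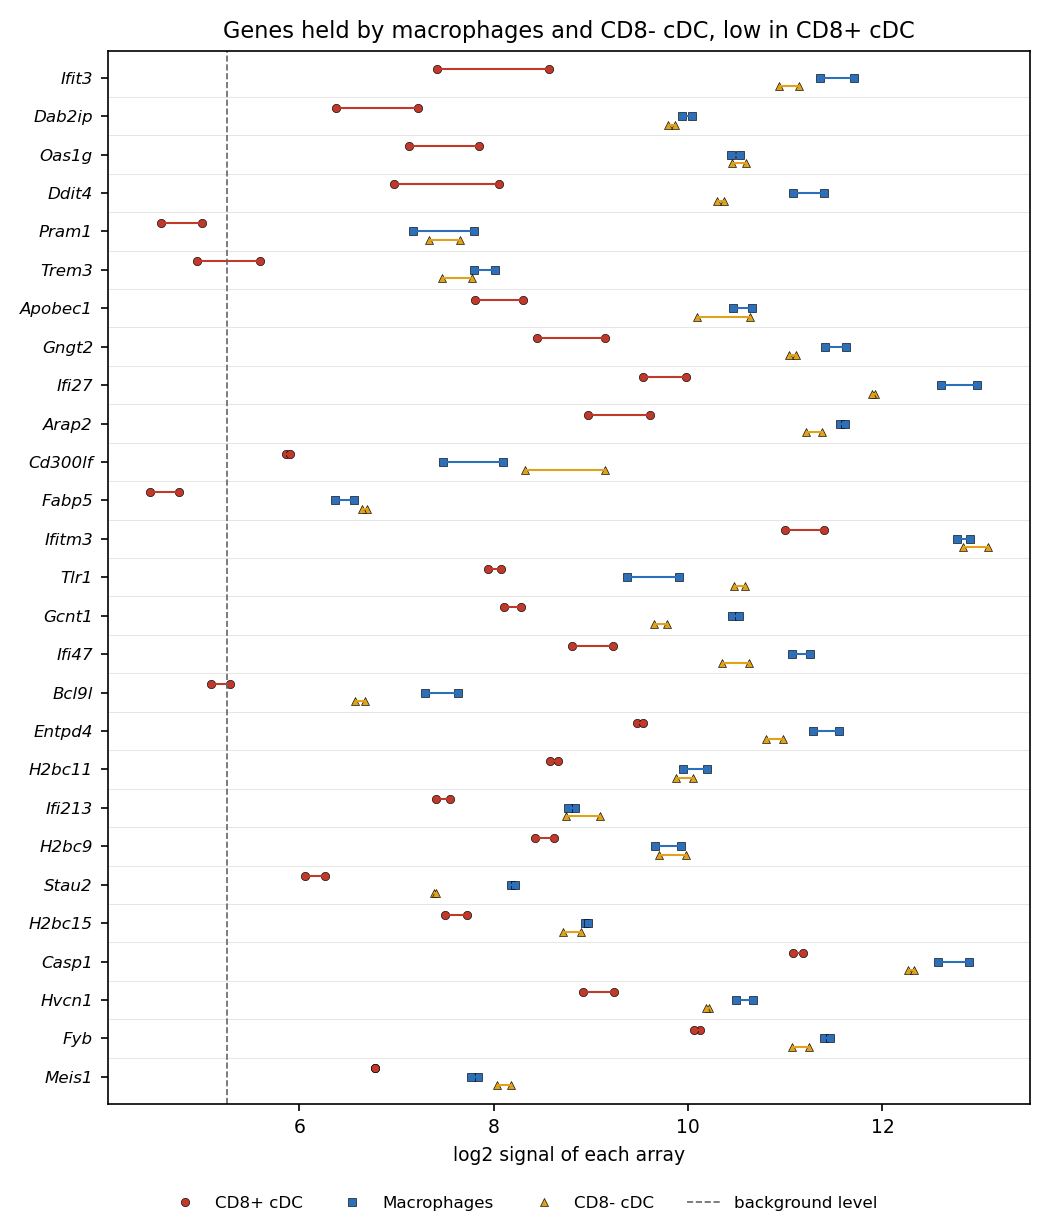
The log2 signal of every array is shown for the 27 genes that macrophages and CD8- cDC share at higher levels than CD8+ cDC. The 3 populations are separate symbols from top to bottom in each row. Both CD8+ cDC arrays lie to the left of the other 4 in each row, and Pram1 and Fabp5 are left of the dashed background line on both.

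The 8 low genes that were not shared had macrophage and CD8- cDC means at least 1 log2 apart. Zeb2, a transcription factor of myeloid cells, was at 7.51 and 7.52 in CD8+ cDC, 10.32 and 10.48 in macrophages and 8.64 and 8.74 in CD8- cDC, 7.43 and 2.27 times lower (-2.04 ± 0.08 log2, SE, limma adjusted p = 0.00527). Ppp1r9a, an actin-binding scaffold, was at 4.80 and 4.68 in CD8+ cDC, 9.85 and 10.06 in macrophages and 6.64 and 7.11 in CD8- cDC. Lilra6 and Pira2, paired receptors of one family whose probes may share signal, were 13.8 and 21.5 times lower than in macrophages and 6.52 and 3.73 times lower than in CD8- cDC. Oas2, Ifitm1, Ear10 and Rap1gap2 were the others. In Oas2 and Ifitm1 CD8- cDC had the higher mean, and in the other 6 macrophages did.

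Gene lists are given beside the shares over all genes, where 2.26% were called higher and 2.7% lower than the mean of the others. At an unadjusted p under 0.05 the counts over all 19057 genes were 1824 higher and 1933 lower. Among 33 immunoglobulin-type receptors and their adaptors limma called 0 higher than the mean of the others and 14 lower (2 and 25 at an unadjusted p under 0.05), with a median of -1.61 log2. The median was -2.03 log2 against macrophages and -0.57 log2 against CD8- cDC, so on this list CD8+ cDC lay closer to CD8- cDC. Lilra6, Pira2, Trem3 and Cd300lf were lower than in each population. The adaptors Fcer1g and Tyrobp, which carry signals of such receptors, differed by -1.86 and -0.94 log2 but missed the threshold against CD8- cDC (adjusted p = 0.0573 and 0.0697). C-type lectins split: Cd207, Clec9a and Cd209e were called higher and 7 of 34 lower, among them Clec4a1, Clec4b1 and Clec4a3. Only Cd207 and Clec9a of this list were set apart from both. Clec4a1 was at 5.60 and 7.63 in CD8+ cDC, 10.95 and 11.46 in macrophages and 9.90 and 10.13 in CD8- cDC, so that the groups did not overlap, but it missed the pairwise threshold (larger adjusted p = 0.123).

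Toll-like receptors split as well, with 3 called higher and 6 lower of 27, against 2.26% and 2.7% of all genes. Of the 27, only Tlr11 was higher than in each population and only Tlr1 was lower. Tlr3, the receptor for double-stranded RNA, was at 8.09 and 8.31 in CD8+ cDC, 6.21 and 5.35 in macrophages and 5.52 and 4.58 in CD8- cDC. Tlr7, the receptor for single-stranded RNA, was at 8.27 and 8.03 in CD8+ cDC, 11.28 and 11.24 in macrophages and 9.41 and 9.98 in CD8- cDC. Tlr12, which acts with Tlr11 in mice, was 1.62 log2 higher. Tlr4, the receptor for lipopolysaccharide, was called lower than the mean of the others and than macrophages, but not than CD8- cDC, at 5.79 and 6.73 in CD8+ cDC, 10.66 and 10.72 in macrophages and 6.25 and 5.79 in CD8- cDC, and its call was lost with the block (adjusted p = 0.0553). Cytosolic sensors had 4 of 18 called lower by limma and 0 higher. The 4 were Ddx58, Nod1, Casp1 and Naip2, the last not with the block (adjusted p = 0.0522). At an unadjusted p under 0.05, 11 sensors were lower and 0 higher, against 1933 and 1824 of all 19057 genes.

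Antigen uptake and cross-presentation genes showed no common shift, with 7 of 37 called higher, 3 lower and a median of 0.02 log2. Over all genes 2.26% were called higher and 2.7% lower. Cd207 and Clec9a were the 2 set apart from both. Ly75, the uptake receptor DEC-205, was at 8.05 and 7.70 in CD8+ cDC, 4.52 and 4.38 in macrophages and 4.90 and 5.87 in CD8- cDC, and missed the threshold against CD8- cDC (adjusted p = 0.0546). Chemotactic receptors had 5 of 39 called higher and 2 lower, against the same shares over all genes. Ccr7, which guides DC to T cell areas, was at 10.04 and 9.15 in CD8+ cDC, 6.14 and 5.58 in macrophages and 8.71 and 8.57 in CD8- cDC. P2ry14, a receptor for UDP-sugars, was at 13.12 and 13.20 in CD8+ cDC, 12.06 and 12.34 in macrophages and 10.57 and 9.60 in CD8- cDC, and lost its call with the block (adjusted p = 0.0543). Neither Ccr7 nor P2ry14 was set apart from both.

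Of 50 cytokines and their receptors limma called 0 higher and 5 lower, and of 28 cell division genes it called 0. Over all genes it called 2.26% higher and 2.7% lower. At an unadjusted p under 0.05, 9 genes of the cytokine list were higher and 15 lower, and 3 cell division genes were higher. At that threshold 1824 of all 19057 genes were higher and 1933 lower. Among 20 core cDC genes 4 were called higher than the mean of the others and 0 were set apart from both. Zbtb46, a transcription factor of cDC, was at 9.68 and 9.49 in CD8+ cDC, 6.17 and 6.47 in macrophages and 9.33 and 9.48 in CD8- cDC. CD8- cDC markers had 4 of 21 called lower and 0 set apart from both. Sirpa was at 10.87 and 12.01 in CD8+ cDC, 14.07 and 14.30 in macrophages and 13.21 and 13.63 in CD8- cDC.

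**Figure D5:**
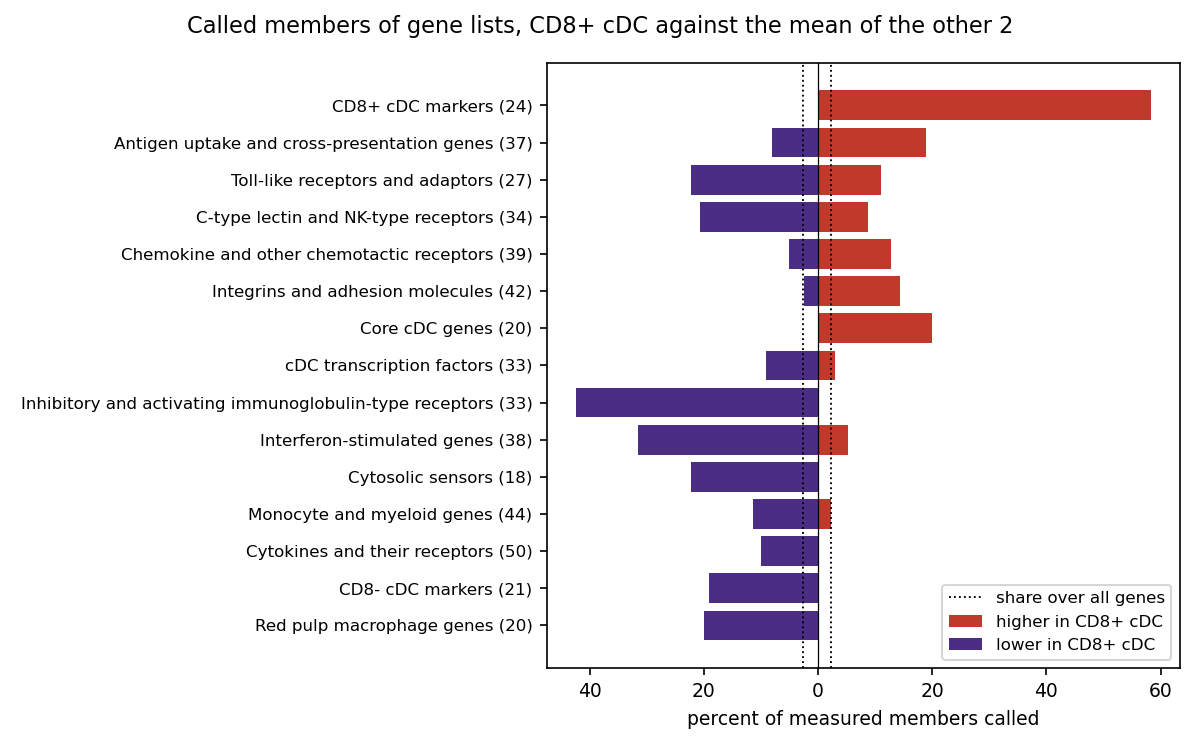
Bars give the percent of measured members of each gene list that were called higher (right) or lower (left) in CD8+ cDC than the mean of macrophages and CD8- cDC, with list sizes in brackets and dotted lines at the shares over all genes, 2.26% and 2.7%. The CD8+ cDC marker list has the longest bar to the right, and the immunoglobulin-type receptors have the longest to the left.

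Of the transcription factors best known for the CD8+ subset, Batf3 and Id2 were not called in mRNA and Irf8 lay at the threshold. Batf3 was at 11.26 and 11.28 in CD8+ cDC, 10.16 and 10.74 in macrophages and 11.36 and 11.25 in CD8- cDC, and was not called (0.40 ± 0.18 log2, SE, limma adjusted p = 0.418). Id2 was at 12.09 and 11.71 in CD8+ cDC, 11.60 and 11.35 in macrophages and 11.34 and 10.51 in CD8- cDC, also not called. Irf8 was at 13.28 and 12.77 in CD8+ cDC, 12.18 and 12.11 in macrophages and 11.13 and 10.36 in CD8- cDC, and missed the threshold (1.58 ± 0.27 log2, SE, limma adjusted p = 0.0555), which it passed with the block (adjusted p = 0.031), with the filter on dim probes (0.0107) and with the trended prior (0.000745). Over CD8- cDC alone its difference was 2.28 log2, a fold of 4.86 (limma adjusted p = 0.0528), and over macrophages 0.88 log2. With 1 array left out its adjusted p was between 0.0698 and 0.247. Irf4, known for the CD8- subset, was at 8.97 and 8.82 in CD8+ cDC, 7.76 and 6.94 in macrophages and 9.61 and 9.69 in CD8- cDC. Of 33 transcription factors on the list, Zbtb46 was called higher and Zeb2, Cebpb and Pou2f2 lower, Pou2f2 not with the block (adjusted p = 0.0508). Over all genes 2.26% were called higher and 2.7% lower. Zeb2 was the one set apart from both populations.

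Some genes set apart from both lie next to each other. Of the 145, 142 could be placed on RefSeq's gene order. Among them 10 pairs had at most 2 coding genes between them, all 10 with both genes on the same side. Of the 145 genes 110 were high, and how many such pairs other genes would form was not tested. Ppef2, Naaa and Sdad1 on chromosome 5 are neighbours in a row, all high, as are Vkorc1l1 and Gusb on the same chromosome, Prr7 and Dbn1 on chromosome 13 and Sh3pxd2b and Ubtd2 on chromosome 11. Ifitm1 and Ifitm3 on chromosome 7 and, with 1 gene between them, Pira2 and Lilra6 on the same chromosome are the low pairs. Each low pair is of one family, and so is a high pair of the Slc22 family on chromosome 11. Probes of one family may share signal. Of 73 high genes with several probes, 20 had every probe called higher and 0 had probes called both ways. The others had at least 1 probe that was not called. Among them Arsb had 1 of 3 probes called, and Flt1 and Atg9b 1 of 2 each. Of 20 low genes with several probes, 4 had every probe called lower and 0 had probes called both ways. Entpd4 had 1 of 5 probes called lower. With the probe of largest variance in place of the brightest, the calls of Cd8b1, Ifitm1, Fyb, Sirpa and P2ry14 against the mean of the others were lost, with adjusted p between 0.0627 and 0.254.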

How the data were processed

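RNA of 3 splenic cell populations, 2 arrays each, was measured on Illumina mouse bead arrays. The deposited values are log2 signals in 6 columns of 45281 probes. The base was inferred from their range. Sorted columns differed by at most 0.0349, so the values were already brought to 1 distribution before deposit, and none was normalised again. BeadStudio and limma are listed in the submitters' processing notes, with neither a version nor a step. Arrays have no count depth: their number limits the precision. A scanner table has 12 value columns whose names match no sample label, and it was not used, so no detection p-values entered.

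One linear model over the 6 arrays (limma 3.58.1, lmFit and eBayes, R 4.3.3) had 3 residual and 1.86 prior degrees of freedom. Its contrasts were CD8+ cDC minus the mean of the 2 other group means, and each pair of groups, with Benjamini-Hochberg adjustment over all 45281 probes, and limma gave all adjusted p-values. A gene was set apart from both where both pairwise contrasts had an adjusted p under 0.05 and at least 1 log2 in the same direction. The background level was the 99th percentile of 1592 probes for genes silent in these cells. It filtered no test. Of the probes, 34885 had 1 symbol in the platform annotation, 18 several and 10378 none. Those left 19057 genes.

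The 37 gene lists (887 of 943 entries measured), the tests and the 4 genes given for the comparison were chosen with earlier results of these data known. Named genes were the 20 highest and 20 lowest of the mean contrast with arrays that do not overlap, the 20 highest and 20 lowest set apart from both, 15 shared genes, up to 4 called members per list and direction, and cell type markers. Genes named outside it are said to be so. The script was tested on simulated data. Replicate differences of same-numbered arrays correlated at 0.403, 0.276 and 0.264 between groups over 17710 probes above background, so the numbers may pair the arrays, though the labels do not say what they share. Alternatives were a replicate block, a filter on dim probes, array alignment, another prior, another probe rule, other thresholds and each array left out.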

Additional observations from a re-analysis of the deposited data

How the results depend on the processing

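The values below are counts of genes higher and lower than the mean of the other populations, then higher and lower than each. The last count is of genes shared by both others but lower in CD8+ cDC. In the main fit the counts were 431, 514, 110, 35 and 27. With replicate number as a block they were 453, 580, 122, 48 and 35, of which 345, 419, 95, 29 and 21 were the same genes. With the arrays set to the same median, which moved single arrays by up to 0.033 log2, they were 422, 535, 110, 35 and 27. With the probe of largest variance they were 439, 510, 108, 39 and 30. A filter on dim probes gave 639, 809, 189, 98 and 65, and a variance prior with an intensity trend 613, 725, 188, 104 and 68. Without the minimum difference, the last 3 counts were 138, 51 and 41, and with at least 2 log2 they were 45, 13 and 10. With macrophages and CD8- cDC within 0.5 log2, 18 shared genes were left, and the lower background level left 27. Leaving out 1 array at a time gave 0 to 431, 0 to 447, 0 to 69, 0 to 17 and 0 to 12. Without the 2 cDC arrays that hold more macrophage signal, an alternative chosen after seeing the data, limma called 0, 0, 0, 0 and 0, although 1246 and 1510 genes differed from the mean and 218 and 191 from each population at an unadjusted p under 0.05. No called gene named in the text changed direction in any of these fits. The cause of the other changes in counts was not tested beyond the fewer samples or probes that each setting holds. Probes near background limit the folds of 44 of the 110 high and 6 of the 35 low genes to minimums.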

Other observations

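Further gene lists had members called in CD8+ cDC against the mean of macrophages and CD8- cDC, where 2.26% of all genes were higher and 2.7% lower. The lists were chosen with earlier results known, and their shares were not tested against those of all genes. Of 42 integrins and adhesion molecules 6 were higher and 1 lower, with Itgae, Itga3, Cadm1 and Cd9 among the higher. Cadm1, an adhesion molecule, was at 11.62 and 11.76 in CD8+ cDC, 11.73 and 11.91 in macrophages and 8.22 and 7.27 in CD8- cDC, so its level in CD8+ cDC was like that in macrophages, and its call was lost with the block (adjusted p = 0.0549). Of 30 costimulation and maturation genes 4 were higher and 2 lower, with 0 set apart from both. Btla, an inhibitory receptor, was at 12.28 and 12.47 in CD8+ cDC, 8.83 and 7.25 in macrophages and 10.12 and 10.34 in CD8- cDC. Of 29 Notch and Wnt genes 1 was called higher, 1 lower and 0 were set apart from both. The higher gene was Notch4, at 12.07 and 12.37 in CD8+ cDC, 8.42 and 7.04 in macrophages and 9.0 and 9.26 in CD8- cDC.

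Of 25 chemokines 3 were higher and 3 lower, and only Cxcl16 was set apart from both. Cxcl9, which attracts T cells through Cxcr3, was at 13.06 and 13.60 in CD8+ cDC, 11.71 and 12.52 in macrophages and 10.35 and 10.42 in CD8- cDC. Of 44 monocyte and myeloid genes 1 was higher and 5 lower. Of 37 actin and vesicle regulators 6 were higher and 4 lower, and of 34 retinoid, lipid and eicosanoid genes 3 and 4. Cd24a, a marker of the subset, was at 8.38 and 7.44 in CD8+ cDC, 6.87 and 5.74 in macrophages and 6.60 and 5.63 in CD8- cDC. It was not called by limma (adjusted p = 0.192) but passed with the block (adjusted p = 0.0168).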
